A study of Homo sapiens with 6 samples.

Results

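EEF1A1 and 8 other core translation factor genes were examined in 6 RNA sequencing libraries labelled as MKN45, a human gastric adenocarcinoma line recorded in the design text as negative for the mucin MUC6. The 9 genes are elongation factors (Eef1a1, Eef2, Eef1g and Eef1d), members of the initiation factor 4 group (Eif4a1, Eif4g1 and Eif4e), the inhibitor of that group Eif4ebp1, and the poly(A) binding protein gene Pabpc1. They were taken by gene identifier (ID) from the deposited table, which has 34866 IDs, and all 9 were among the 11400 IDs that passed the filter on low counts. The set was chosen by function and by 1 measured value: it was selected on the count of Eef1a1, the highest of any ID in every library. That rank is given as a description, without a test.

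Per the labels, 3 samples received an adenovirus with a short hairpin RNA (shRNA) against GOLPH3, a phosphoinositide-binding protein of the Golgi, and 3 received an adenovirus with a control shRNA. All 6 therefore carry an adenovirus and a hairpin, and none is an untreated culture. The labels give neither dose nor time after infection, nor the number of hairpin sequences. The titles number the GOLPH3 shRNA samples sh1 to sh3, called replicates 1 to 3 here, and these numbers could stand for replicates or for hairpins. The labels also do not say whether replicates 1 to 3 were separate cultures. The p-values therefore cover only the spread among these samples, possibly a technical one.

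Protein synthesis starts when eIF4E binds the cap of a messenger RNA and joins the scaffold eIF4G and the helicase eIF4A, which together load the small ribosomal subunit. The 4E-binding protein encoded by EIF4EBP1 competes with eIF4G for eIF4E and is switched off by phosphorylation through mTORC1. During elongation, eEF1A brings each aminoacyl-tRNA to the ribosome, the eEF1 exchange complex recharges eEF1A with GTP, and eEF2 moves the ribosome along. Many messenger RNAs of elongation factors and ribosomal proteins, and that of PABPC1, begin with a C and a run of pyrimidines, the terminal oligopyrimidine (TOP) tract, through which mTORC1 controls their translation.

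The starts of the human genes are shown because the TOP tract distinguishes many elongation factor messenger RNAs. The sequences are from RefSeq (GRCh38.p14), matched by the human symbol, and those of EEF1D, EIF4EBP1 and PABPC1 were not used here. Each line runs 5′ to 3′ and holds 15 bases before the annotated start of transcription and 15 from that start on. Capitals mark a C at the start together with the unbroken C or T bases after it.
EEF1A1, chr6:73521018-73521047, minus strand: gtcgccgtgaacgttCTTTTTCgcaacggg
EEF2, chr19:3985449-3985478, minus strand: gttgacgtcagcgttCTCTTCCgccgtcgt
EEF1G, chr11:62573877-62573906, minus strand: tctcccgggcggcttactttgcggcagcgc
EIF4A1, chr17:7572810-7572839, plus strand: aggcgggcactccgcCCTagtttctaagga
EIF4E, chr4:98929119-98929148, minus strand: ccttctggagcggttgtgcgatcagatcga
A C followed by at least 4 bases that are each C or T, read on the sense strand from the start base, was present in the EEF1A1 and EEF2 windows, where the run is 7 bases long. It was absent from the windows of EEF1G, EIF4A1 and EIF4E and from the 3 annotated starts of EIF4G1. Of all 35116 start windows in the RefSeq table, 4.07% had it. The annotated start is a single base, and a run that begins beside it is not counted.

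The libraries held 4977645 to 5676169 estimated counts with GOLPH3 shRNA and 6287037 to 7355140 with control shRNA. The IDs are those of mouse genes and the submitters' processing notes name the mouse build mm10, although the labels give human cells. Whether reads of human cells were counted on mouse genes, or the sequenced cells were murine, cannot be told from the table. It carries no symbols, and the 9 symbols used here, in mouse spelling, came with the list of IDs and could not be checked against a mouse annotation. For the same reason GOLPH3 itself, markers of gastric epithelium and the other translation factor genes were not analysed here. Levels are in CPM, that is, counts after scaling every library to the same total. Gene lengths were not used, so counts are compared between libraries for the same ID and not as abundances of different genes. In these bulk samples, fewer cells of a type and less RNA per cell cannot be told apart.

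Among the 9 genes, Eif4ebp1, Eif4e and Eif4a1 were higher with GOLPH3 shRNA, Eef1a1 was lower, and 5 did not pass the test. The increase of Eif4ebp1 was 1.77-fold and that of Eif4e 1.38-fold, and both were called with any library left out. Eif4a1 was 1.14-fold higher and Eef1a1 1.18-fold lower, and both were close to the threshold of the test. The 4 called genes are 44.4% of the 9, while 33.9% of all 11400 tested IDs were called (edgeR quasi-likelihood F test, adjusted p below 0.05 by Benjamini-Hochberg), so the number of calls does not set these genes apart. By direction, 3 of the 9 were called higher, against 16.1% of all tested IDs, and 1 was called lower, against 17.8%. The values of both groups did not overlap for 5 of the 9 genes, against 46.3% of all tested IDs. The median log2 fold change was 0.027 over the 9 genes and 0.0019 over all tested IDs.

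**Figure D1:**
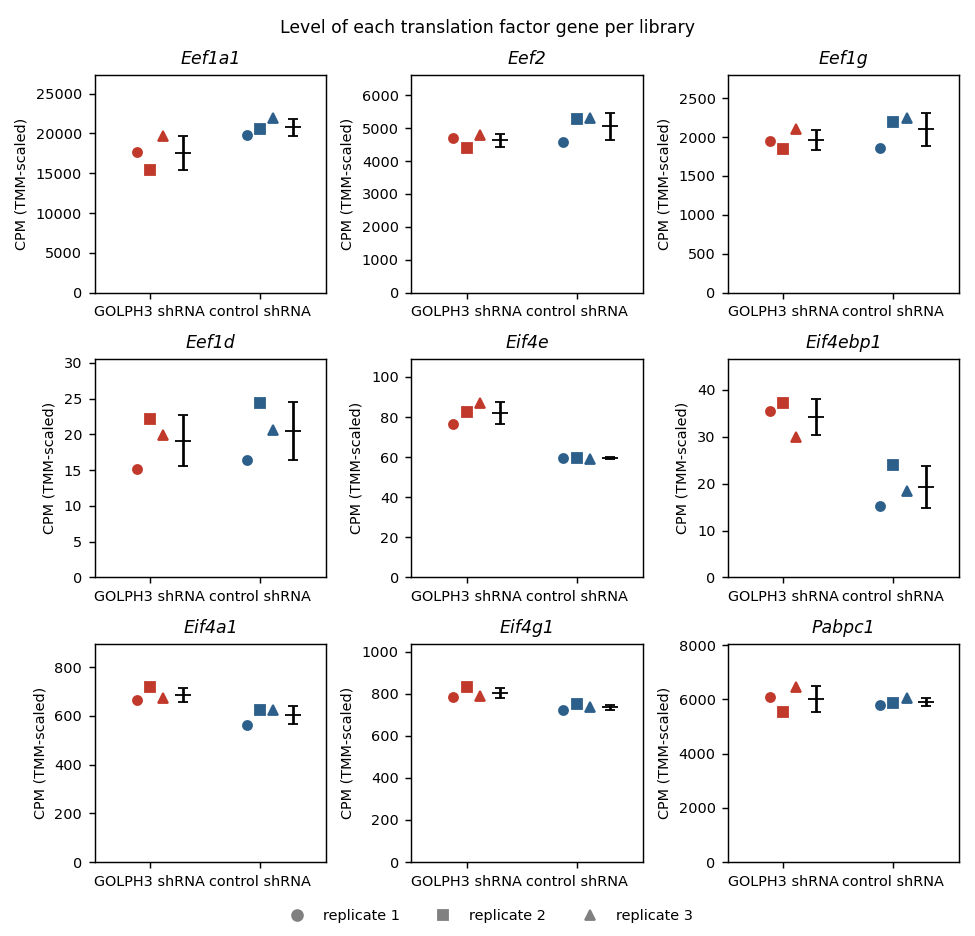
Level of each gene in CPM (scaled with trimmed mean factors, vertical axis from 0) in the 3 GOLPH3 shRNA libraries (red, left) and the 3 control shRNA libraries (blue, right), with the mean and SD of each group in black. The groups are separate for Eef1a1, Eif4a1, Eif4g1, Eif4e and Eif4ebp1 and overlap for Eef2, Eef1g, Eef1d and Pabpc1.

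The elongation factor genes all had fold changes below 0 on the log2 scale, as did 5684 of all 11400 tested IDs. Eef1a1 alone of the 4 passed the test, against 17.8% of all tested IDs called lower. These 4 genes are too few to read such shares as a result of the group. The 4 genes ranged from -0.24 to -0.094, with a median of -0.11. Except for Eef1a1, the 95% interval of each includes 0.

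Eef1a1 (ENSMUSG00000037742), which encodes the GTPase that delivers aminoacyl-tRNA, had 17685, 15422 and 19637 CPM in GOLPH3 shRNA replicates 1, 2 and 3, against 19827, 20579 and 21921 CPM in control replicates 1, 2 and 3. All GOLPH3 shRNA values lay below all control values, but GOLPH3 shRNA replicate 3 came close to control replicate 1. The means were 17581 ± 2110 CPM with GOLPH3 shRNA and 20775 ± 1061 CPM with control shRNA (SD, n = 3 each). The log2 fold change was -0.24 (SE 0.081, 95% interval -0.41 to -0.069, edgeR adjusted p = 0.030), a level 1.18 times lower, and 30.0% of all tested IDs had a lower fold change. Of the 320 IDs with a mean of at least 500 CPM, a limit set after the data were examined, 56.9% were called. Of the 6 genes above that limit (Eef1a1, Eef2, Eef1g, Eif4a1, Eif4g1 and Pabpc1), 2 were called.

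With all 6 libraries, the log2 fold change of Eef1a1 was -0.24. Its call was not kept in every fit with 1 library left out, where each fit has fewer samples. It was lost without GOLPH3 shRNA replicate 1 (log2 fold change -0.25, edgeR adjusted p = 0.11), GOLPH3 shRNA replicate 2 (-0.16, edgeR adjusted p = 0.089), control replicate 2 (-0.25, edgeR adjusted p = 0.073) or control replicate 3 (-0.21, edgeR adjusted p = 0.11). It held without GOLPH3 shRNA replicate 3 or control replicate 1, and the fold change was below 0 in each case.

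As a share of all counts, Eef1a1 made up 1.75%, 1.57% and 1.91% of GOLPH3 shRNA libraries 1, 2 and 3, against 2.03%, 2.05% and 2.16% of control libraries 1, 2 and 3. Its count was 2.11 to 2.29 times that of the next ID in the GOLPH3 shRNA libraries and 3.42 to 3.62 times that of the next ID in the control libraries. The next ID was Pabpc1 in the controls and an ID outside these genes with GOLPH3 shRNA, where Pabpc1 ranked 3. The 9 genes together held 3.16% ± 0.22 of the counts with GOLPH3 shRNA and 3.53% ± 0.11 with control shRNA (SD, n = 3 each). Without Eef1a1 the sums were 1.41% ± 0.045 with GOLPH3 shRNA and 1.45% ± 0.052 with control shRNA, so most of the difference in the sum was that of Eef1a1.

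Eef1a1 and 7 of the other genes have estimates with a fractional part, as arises when reads are divided among genes, and Eif4g1 has whole counts in all libraries. Such fractional values made up 41.0% to 43.9% of the counts in GOLPH3 shRNA libraries and 39.8% to 40.9% in control libraries. Their part in the difference of Eef1a1 was not tested. Genes of this kind have many processed copies in mammalian genomes, and the treatment of reads shared among copies is not stated in the labels, so the levels are uncertain to that extent.

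Eef2 (ENSMUSG00000034994), which encodes the translocase, had 4692, 4394 and 4794 CPM in GOLPH3 shRNA replicates 1, 2 and 3, against 4571, 5287 and 5300 CPM in control replicates 1, 2 and 3. Control replicate 1 lay among the GOLPH3 shRNA values, and the other 2 control values lay above them. The log2 fold change was -0.13 (SE 0.072, 95% interval -0.28 to 0.025, edgeR adjusted p = 0.19). Without control replicate 1 it was -0.20 and was called (edgeR adjusted p = 0.020).

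Eef1g (ENSMUSG00000071644) and Eef1d (ENSMUSG00000055762) encode the gamma and delta subunits of the eEF1 exchange complex, and neither passed the test. Eef1g had 1953, 1842 and 2102 CPM in GOLPH3 shRNA replicates 1, 2 and 3, against 1858, 2192 and 2242 CPM in control replicates 1, 2 and 3, with a log2 fold change of -0.094 (95% interval -0.26 to 0.072, edgeR adjusted p = 0.38). The values of Eef1g interleaved as those of Eef2 did, with control replicate 1 low. Eef1d had far fewer assigned counts, from 75 in GOLPH3 shRNA replicate 1 to 179 in control replicate 2. Its levels were 15.2, 22.2 and 19.9 CPM with GOLPH3 shRNA and 16.3, 24.4 and 20.6 CPM with control shRNA, in replicates 1, 2 and 3 of each. The spread within a group exceeded the difference between the groups, and the 95% interval of the log2 fold change, -0.49 to 0.29, covers changes in both directions (edgeR adjusted p = 0.71).

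**Figure D2:**
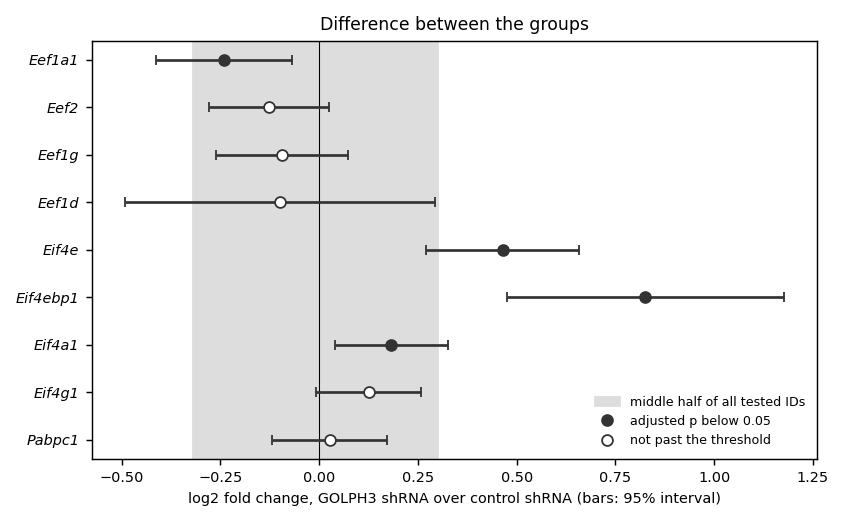
Log2 fold change of GOLPH3 shRNA over control shRNA for each gene (horizontal axis), with its 95% interval; filled points have an edgeR adjusted p below 0.05, and the grey band spans the quartiles of all 11400 tested IDs (-0.32 to 0.30). Eif4e and Eif4ebp1 lie above the band, and the other 7 genes lie within it.

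The initiation factor 4 genes all had log2 fold changes above 0, as did 5716 of all 11400 tested IDs. Of the 3 genes, 2 were called higher, against 16.1% of all tested IDs called higher. Log2 fold changes of the 3 genes ranged from 0.13 to 0.46. The groups did not overlap for any of the 3, against 46.3% of all tested IDs without overlap, and 3 genes are too few to read these shares as a result of the group.

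Eif4e (ENSMUSG00000028156), which encodes the cap-binding protein, had 76.4, 82.5 and 87.1 CPM in GOLPH3 shRNA replicates 1, 2 and 3, against 59.8, 59.7 and 58.9 CPM in control replicates 1, 2 and 3. The control values differed from each other by less than 1 CPM, and every GOLPH3 shRNA value was above them. The means were 82.0 ± 5.35 CPM with GOLPH3 shRNA and 59.5 ± 0.47 CPM with control shRNA (SD, n = 3 each). The log2 fold change was 0.46 (SE 0.091, 95% interval 0.27 to 0.66, edgeR adjusted p = 0.00097), above that of 84.7% of all tested IDs. With each library left out in turn it was 0.41 to 0.51, and it was called each time.

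Eif4a1 (ENSMUSG00000059796) encodes the helicase of the cap-binding complex, and Eif4g1 (ENSMUSG00000045983) encodes its scaffold. Eif4a1 had 665, 717 and 675 CPM in GOLPH3 shRNA replicates 1, 2 and 3, against 563, 624 and 625 CPM in control replicates 1, 2 and 3. The groups were separate, and the log2 fold change was 0.18 (SE 0.068, 95% interval 0.039 to 0.33, edgeR adjusted p = 0.047). The call was lost without any 1 of the 6 libraries (log2 fold changes from 0.13 to 0.20, edgeR adjusted p from 0.070 to 0.15), without a filter on low counts (0.16, edgeR adjusted p = 0.090) and with a minimum of 1 CPM in 3 libraries (0.18, edgeR adjusted p = 0.057). Eif4g1 had 787, 830 and 790 CPM in GOLPH3 shRNA replicates 1, 2 and 3, against 723, 749 and 735 CPM in control replicates 1, 2 and 3. Every GOLPH3 shRNA value of Eif4g1 was above every control value, but the gene did not pass the test (log2 fold change 0.13, SE 0.063, 95% interval -0.0069 to 0.26, edgeR adjusted p = 0.13).

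Eif4ebp1 (ENSMUSG00000031490), which encodes the inhibitor that competes with eIF4G for eIF4E, had the largest fold change of the 9 genes. It had 35.5, 37.2 and 30.0 CPM in GOLPH3 shRNA replicates 1, 2 and 3, against 15.3, 24.0 and 18.4 CPM in control replicates 1, 2 and 3. These levels rest on 166 to 208 counts per GOLPH3 shRNA library and 98 to 176 per control library. The groups did not overlap, and control replicate 2 was the highest control. The means were 34.2 ± 3.78 CPM with GOLPH3 shRNA and 19.2 ± 4.43 CPM with control shRNA (SD, n = 3 each). The log2 fold change was 0.83 (SE 0.17, 95% interval 0.48 to 1.18, edgeR adjusted p = 0.0011), above that of 95.1% of all tested IDs. With each library left out in turn it was 0.68 to 1.02, and it was called each time.

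Pabpc1 (ENSMUSG00000022283), which encodes the cytoplasmic poly(A) binding protein that contacts eIF4G, showed no detectable difference. It had 6075, 5522 and 6441 CPM in GOLPH3 shRNA replicates 1, 2 and 3, against 5802, 5853 and 6055 CPM in control replicates 1, 2 and 3. The control values lay within the range of the GOLPH3 shRNA values. The log2 fold change was 0.027 (95% interval -0.12 to 0.17, edgeR adjusted p = 0.80), so the interval reaches from 0.921-fold to 1.13-fold.

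**Figure D3:**
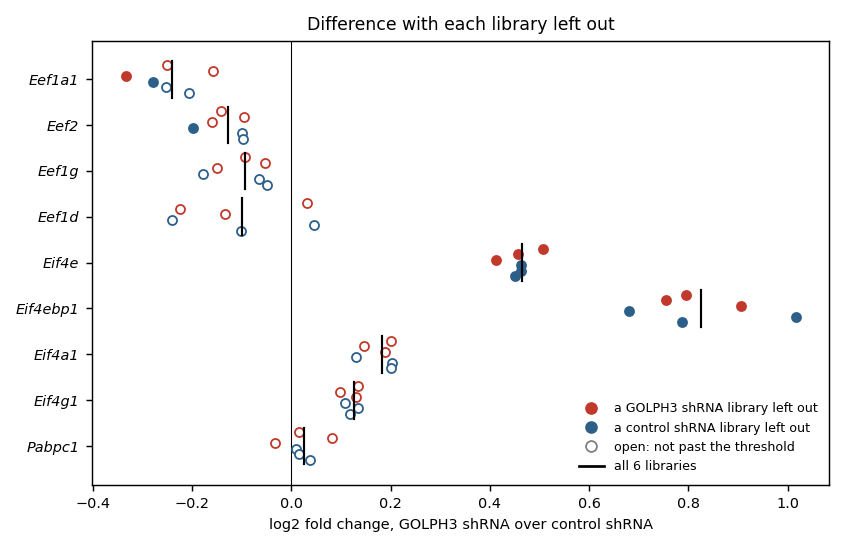
Log2 fold change of GOLPH3 shRNA over control shRNA (horizontal axis) for each gene with 1 library left out in turn (red, a GOLPH3 shRNA library; blue, a control shRNA library; open, adjusted p not below 0.05), and with all 6 libraries (black line). All points of Eif4e and Eif4ebp1 are filled, all of Eif4a1 are open, and 2 of the 6 points of Eef1a1 are filled.

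Ratios of counts within a library do not depend on how libraries are scaled, and 5 pairs of partner genes were compared in this way. None reached an adjusted p below 0.05, which an exact permutation test of 3 against 3 cannot give (smallest two-sided p = 0.1). For the inhibitor and its target, there were 46.4, 45.1 and 34.4 counts of Eif4ebp1 per 100 counts of Eif4e in GOLPH3 shRNA replicates 1, 2 and 3, against 25.5, 40.2 and 31.3 in control replicates 1, 2 and 3. Control replicate 2 lay among the GOLPH3 shRNA values. The difference of the mean log2 ratios was 0.39, a 1.31-fold higher ratio, with SDs of 0.24 for GOLPH3 shRNA and 0.33 for control shRNA (exact permutation p = 0.2, adjusted over 5 pairs 0.33). The difference was 0.23 without control replicate 1. Since the permutation test cannot reach the threshold, it cannot show whether the fold changes of Eif4ebp1 and Eif4e differ.

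Relative to Eef1a1, the log2 ratio of Eef1g was higher in every GOLPH3 shRNA library, at -3.18, -3.07 and -3.22, than in any control library, at -3.42, -3.23 and -3.29. The difference was 0.16 (exact permutation p = 0.1, adjusted 0.33), and it was 0.10 without control replicate 1. GOLPH3 shRNA replicate 3 and control replicate 2 nearly met. The ratio of Eef2 to Eef1a1 differed by 0.12 (exact permutation p = 0.2, adjusted 0.33; 0.068 without GOLPH3 shRNA replicate 2), with overlapping groups. That of Eef1d to Eef1a1 differed by 0.15 (exact permutation p = 0.6, adjusted 0.6), with overlapping groups, and turned to -0.058 without GOLPH3 shRNA replicate 2. The ratio of Pabpc1 to Eif4g1 differed by -0.10 (exact permutation p = 0.4, adjusted 0.5), also with overlap, and by -0.017 without GOLPH3 shRNA replicate 2.

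**Figure D4:**
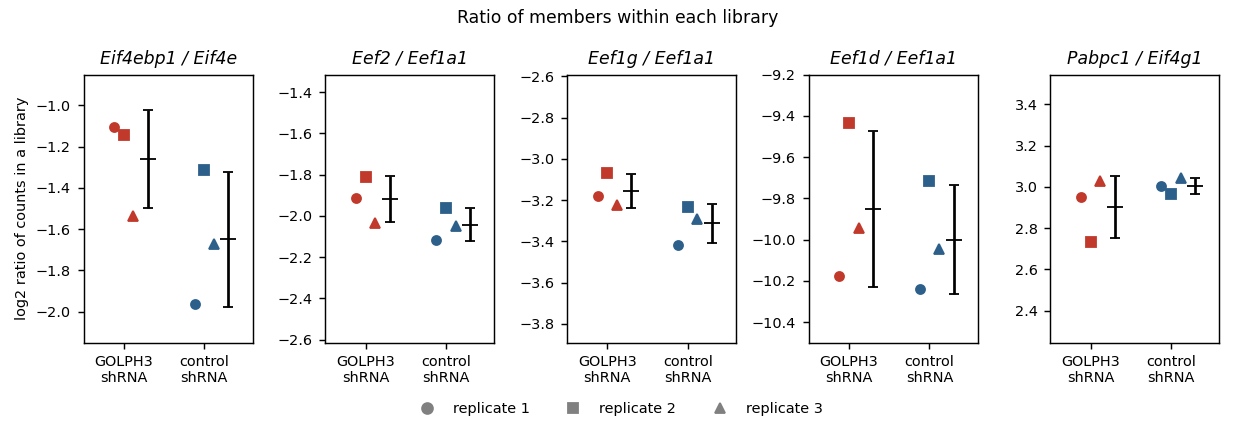
Log2 ratio of the counts of 2 genes within each library (vertical axes, all spanning the same range) for 5 pairs, with GOLPH3 shRNA in red on the left, control shRNA in blue on the right, and the mean and SD in black. The groups are separate for Eef1g over Eef1a1 and overlap for the other 4 pairs.

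Within a group, several of the abundant genes varied together. Eef1a1, Eef2, Eef1g and Pabpc1 were all lowest in GOLPH3 shRNA replicate 2 and highest in GOLPH3 shRNA replicate 3, and all lowest in control replicate 1 and highest in control replicate 3. This order in both groups was found in 4.51% of all tested IDs. With CPM by library totals alone, the 4 genes kept their order in the GOLPH3 shRNA libraries, but only Eef1a1 and Eef1g kept it in the controls. Scaling factors moved with this order: the factor was highest in GOLPH3 shRNA replicate 2 (1.02) and control replicate 1 (1.02) and lowest in GOLPH3 shRNA replicate 3 (0.977) and control replicate 3 (0.987). Their part in the pattern was not tested. Eif4a1, Eif4g1, Eif4ebp1 and Eef1d were highest in GOLPH3 shRNA replicate 2, where those 4 genes were lowest, on both scales.

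Likeness to the pattern of Eef1a1 was measured as the root mean square difference of log2 CPM over the 6 libraries, after each ID was centred on its own mean. Of the other 11399 tested IDs, Eef2 ranked 247 (0.10), Eef1g ranked 331 (0.11) and Pabpc1 ranked 935 (0.14), while Eif4e ranked 7563 (0.37) and Eif4ebp1 ranked 10294 (0.60). The closest was ENSMUSG00000081067.1 with a difference of 0.021, and the next was ENSMUSG00000045394.8 with 0.030. ENSMUSG00000081067.1 had 1897 ± 242 CPM with GOLPH3 shRNA and 2239 ± 143 CPM with control shRNA (SD, n = 3 each), from estimates with a fractional part. Whether reads divided between this ID and Eef1a1 have a part in the likeness was not tested. ENSMUSG00000045394.8 had 590 ± 55.5 CPM with GOLPH3 shRNA and 681 ± 28.4 CPM with control shRNA (SD, n = 3 each), from whole counts in every library.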

How the data were processed

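A single table was deposited by the authors, with estimated counts per mouse gene ID for 6 libraries; its values are partly fractional and not normalized. Per the labels' protocols, a stranded messenger RNA kit was used for the libraries. The mouse build mm10 is named in the submitters' processing notes; for the aligner or quantifier, annotation release and strand setting, the sources used here give nothing. The genes and lists were chosen with earlier results of these data known.

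Estimated counts were rounded to whole numbers and filtered with edgeR's filterByExpr (11400 of 34866 IDs kept, holding 99.7% to 99.8% of each library's counts). Groups were compared over all tested IDs with edgeR 4.0.16 in R 4.3.3 (trimmed mean, TMM, factors; quasi-likelihood F test; Benjamini-Hochberg adjustment; call at an adjusted p below 0.05). CPM are TMM-scaled. SE is the log2 fold change over the square root of F, and 95% intervals use the t distribution of the fit. Log2 ratios within libraries used counts plus 0.5 and exact two-sided permutation tests. Alternatives were other scalings and filters, DESeq2 1.42.0, limma-voom (limma 3.58.1), unrounded counts, a replicate block, thinning and each library left out. Besides the 9 genes, the rule named the 2 tested IDs closest to Eef1a1 in pattern. A translation list of other factors by symbol, the targeted gene and cell markers were not run, since 0 IDs matched a symbol table.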

Additional observations from a re-analysis of the deposited data

How the results depend on the processing

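Across 10 alternatives (scaling, filter, rounding, thinning, replicate block, DESeq2 and limma-voom), Eif4e (0.42 to 0.48), Eif4ebp1 (0.80 to 0.84) and Eef1a1 (-0.26 to -0.23) kept direction and call, and the remaining genes kept their direction. The call of Eif4a1 was lost without a filter (0.16) and with a minimum of 1 CPM in 3 libraries (0.18, main value 0.18); the cause was not tested. With each library left out, log2 fold changes ran from -0.33 to -0.16 for Eef1a1 (called in 2 of 6), from -0.20 to -0.095 for Eef2 (called in 1), from -0.18 to -0.050 for Eef1g (called in 0), from 0.13 to 0.20 for Eif4a1 (called in 0; each fit has fewer samples), from -0.24 to 0.045 for Eef1d and from -0.032 to 0.081 for Pabpc1. Eef1d turned to 0.032 without GOLPH3 shRNA replicate 1 and to 0.045 without control replicate 2, and Pabpc1 to -0.032 without GOLPH3 shRNA replicate 3; none of these was called. The difference in the share of counts held by the 9 genes was -0.37 percentage points, and -0.037 without Eef1a1.

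With the replicate number as a block, 3887 IDs were called, against 3870 without it, and the call of none of the 9 genes changed. Deviations of same-numbered libraries correlated at 0.032, 0.090 and 0.044 and those of unlike numbers at -0.086 to 0.037. Of the 6 libraries, 5 correlated best with their own number. These matches depend on each other, since deviations were taken from group means, and whether they reflect pairing was not tested. The labels do not say that the numbers pair samples and no correlation exceeded 0.1, so the block was kept as an alternative. Leaving out libraries gave 3069 to 3594 calls. With libraries left out, the differences in log2 ratio ran from 0.23 to 0.56 for Eif4ebp1 over Eif4e, from 0.068 to 0.18 for Eef2 over Eef1a1, from 0.10 to 0.20 for Eef1g over Eef1a1, from -0.058 to 0.31 for Eef1d over Eef1a1 and from -0.16 to -0.017 for Pabpc1 over Eif4g1. Counts over the translation list were not run. The estimates of Eef1d (75 to 179 counts per library) and Eif4ebp1 (98 to 208) rest on few assigned counts, and the reason was not tested.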
